A study of Rattus norvegicus with 458 samples.

Results

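The 2 mature arms of the microRNA (miRNA) miR-122, miR-122-5p and miR-122-3p, were followed through an atlas of small RNA libraries from rat tissues. They were taken by name and are 2 of the 7534 names in the miRNA table. In the table of isomiRs, the sequence variants counted under a miRNA name, miR-122-5p had 541 sequences and miR-122-3p had 381, of 264294 in all. Outside dorsal root ganglia (DRG), the libraries came from 10 naïve Sprague Dawley rats of 12 to 13 weeks, 5 male and 5 female. All libraries were from untreated animals and covered 23 tissue labels, with 10 libraries for most and 5 for the testicle, ovary and uterus. DRG had been pooled over animals, 1 pool for each sex, and the 10 DRG libraries are technical repeats of these 2 pools. The pools carry no rat number, so they cannot be assigned to the 10 rats.

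miR-122 is the characteristic miRNA of hepatocytes, the main cell type of the liver. Its hairpin precursor is cut in the nucleus by Drosha and in the cytoplasm by Dicer, which leaves a duplex of both arms. The 5p arm is the one mostly loaded into Argonaute, where its seed, bases 2 to 8, pairs with target mRNAs, among them genes of cholesterol and lipid metabolism. The 3′ end of miR-122 is also known as a substrate of the poly(A) polymerase GLD-2, which adds an adenosine. miR-122 is released into blood upon liver injury, and the atlas was built to learn from which organs such circulating miRNAs can come, with whole blood included for its own contribution.

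The hairpin and both mature arms are shown first because every isomiR below is read against them. In the RefSeq GRCr8 annotation the hairpin gene Mir122 lies on the plus strand of chromosome 18, at chr18:61028817-61028901. The 5p arm covers positions 61028831 to 61028852 and the 3p arm positions 61028867 to 61028885. Capitals mark the arms in the hairpin and the seed in each arm, all 5′ to 3′.
Mir122 hairpin: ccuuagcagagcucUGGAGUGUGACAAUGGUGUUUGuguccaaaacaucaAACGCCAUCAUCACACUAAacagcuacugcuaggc
miR-122-5p: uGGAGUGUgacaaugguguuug
miR-122-3p: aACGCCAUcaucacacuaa
The 5p seed GGAGUGU and the 3p seed ACGCCAU were each held by no other of the 724 mature rat miRNAs in RefSeq. No other name in the table contained miR-122. The precursor entry mir-3591-pre, with 10 counts in all libraries, had 4 of its 5 sequences on the opposite strand of the Mir122 hairpin, with at most 1 mismatch.

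The most counted isomiRs of each arm in Liver carry the end patterns described below, so the leading ones are given here with T for U, as the sequencing tables have it. A capital marks a last base that the hairpin does not hold at that place. All sequences of the 5p arm with a mean share of at least 1% of the arm are shown, and for the 3p arm the 5 most counted of 13.
5p isomiR 1: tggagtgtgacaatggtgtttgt
5p isomiR 2: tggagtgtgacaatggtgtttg
5p isomiR 3: tggagtgtgacaatggtgtttgA
5p isomiR 4: tggagtgtgacaatggtgttt
5p isomiR 5: tggagtgtgacaatggtgtttgtT
3p isomiR 1: aacgccatcatcacactaaac
3p isomiR 2: aacgccatcatcacactaaacT
3p isomiR 3: aacgccatcatcacactaaaca
3p isomiR 4: aacgccatcatcacactaa
3p isomiR 5: aaacgccatcatcacactaaac
5p isomiR 2 and 3p isomiR 4 are the RefSeq mature sequences. The other leading sequences differ from them in the last bases, and 3p isomiR 5 differs at its start as well.

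Levels are given as CPM, each count scaled to a library total of 1e6. Library totals ran from 376401 to 17725805 counts, and those of Liver from 2803541 to 5570031. Over all tissues, 27 libraries correlated more closely with another tissue than with their label. For 17 of them the difference in r was at most 0.0194, and for 10 it was more than 0.05. None of the 27 was a Liver library or was closest to Liver. The 10 were duodenum of rats 2, 4, 7 and 11, hippocampus of rats 2, 6 and 7, adrenal and uterus of rat 8 and ovary of rat 11. They were kept under their labels in the tissue levels below. The median r of each Liver library with the other Liver libraries was 0.960 or above, against at most 0.897 with the libraries of any other tissue. Of 13 names listed for hepatocytes and liver, 12 were in the table, and the sum of the list was 452640 to 517760 CPM in the Liver libraries. Most of it was miR-22-3p, with a mean of 295600 CPM, and miR-192-5p, with 148290 CPM. Their highest tissues were the heart and the ileum, so the sum does not mark hepatocytes alone. miR-802-5p, miR-802-3p and miR-193-3p of the list were highest in Liver. RNA integrity numbers of Liver were 7.4 to 8.4. Of the 10 Liver libraries, 5 were labelled as re-extracted, 4 from females and 1 from a male, so extraction moved with sex and their parts cannot be told apart.

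miR-122-5p was a major Liver miRNA and varied little between rats. In the females, miR-122-5p stood at 32849, 36797, 33054, 38295 and 40363 CPM in rats 7, 8, 9, 10 and 11. In the males, it stood at 32732, 31362, 25926, 32085 and 36059 CPM in rats 2, 3, 4, 5 and 6. The female values were the higher ones on average, but the ranges overlapped, and the lowest library was that of male rat 4. Over all 10 Liver libraries the mean was 33952 ± 4091 CPM (SD), or 3.40 ± 0.409% of all counts, and miR-122-5p ranked 8 among the names of this tissue. Values of the same library from flow cell D1GBMACXX and from the other flow cells differed by little, with ratios of 0.956 to 1.01.

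miR-122-3p, the passenger arm, was far lower in the same libraries. It stood at 1347, 1269, 1937, 1432 and 1812 CPM in female rats 7, 8, 9, 10 and 11. The males had 1544, 928, 1254, 1126 and 1570 CPM in rats 2, 3, 4, 5 and 6. The mean was 1422 ± 306 CPM (SD, n = 10), rank 43 in Liver, and the ranges of the sexes overlapped here too. The 3p arm thus made up 4.03 ± 0.771% of the counts of both arms. By rat, this share was 3.94, 3.33, 5.54, 3.60 and 4.30% in females 7 to 11, and 4.51, 2.87, 4.61, 3.39 and 4.17% in males 2 to 6. The highest share was in female rat 9 and the lowest in male rat 3, while the 5p level of both rats was within 1 SD of the mean.

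**Figure D1:**
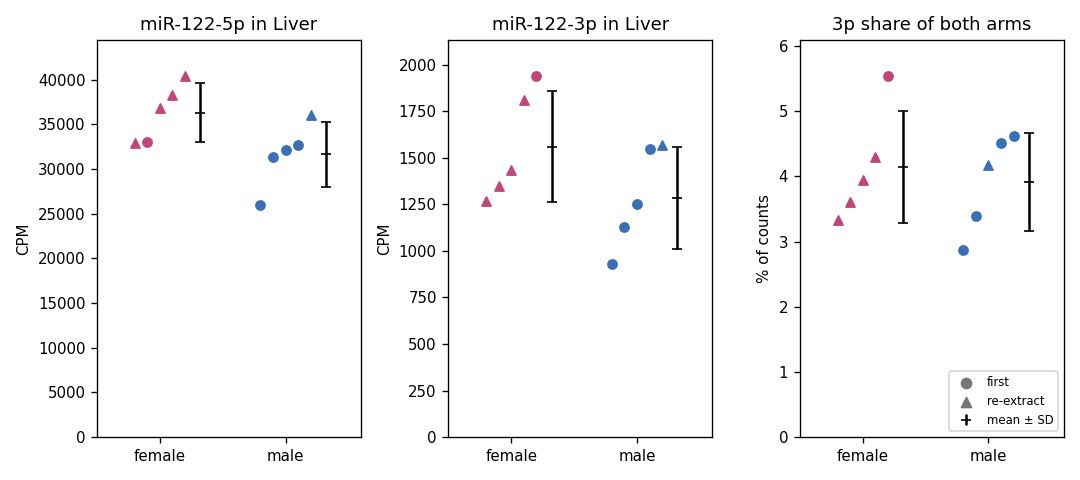
Levels of miR-122-5p and miR-122-3p in CPM and the share of the 3p arm in percent for each of the 10 Liver libraries, 1 point for each rat by sex, with circles for first and triangles for repeated extractions and bars for the mean ± SD of 5 rats. The sexes overlap for every value, and rat 9 has the highest share of the 3p arm, 5.54%, and rat 3 the lowest, 2.87%.

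The 5p arm had an almost fixed start and a variable 3′ end. In Liver, 99.6 ± 0.0985% (SD, n = 10 rats) of its counts began at the reference base. Read against the hairpin, with a mismatched last base set aside as added, 41.7% of the counts ended 1 base beyond the RefSeq end. A near equal share, 40.9%, ended at the RefSeq end, and 15.0% ended 1 base before it. The most counted sequence in each of the 10 rats was 5p isomiR 1, the arm with 1 more hairpin base, at 37.9 ± 1.73% of the arm. The RefSeq sequence itself, 5p isomiR 2, followed with 22.96 ± 0.789%. 5p isomiR 4, 1 base short, had 13.4 ± 1.52%. These 3 shares changed little from rat to rat, and the order of the first and the second was the same in every rat.

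The adenosine added to the 5p arm sat at 1 end position above all. 5p isomiR 3, the RefSeq sequence followed by an A where the hairpin has a U, made up 16.6 ± 2.23% of the arm, with a range of 11.7 to 19.4%. An added A was found on 17.6 ± 2.28% of all 5p counts, an added T on 2.62%, an added C on 0.417% and an added G on 0.211%. Among the counts whose hairpin part stopped at the RefSeq end, 40.6 ± 4.50% carried the added A. The same share was 1.17% where the hairpin part stopped 1 base later and 1.91% where it stopped 1 base earlier. It was 13.6% at 2 bases earlier. A T added after the RefSeq end is the hairpin's own next base and cannot be told from a longer cut, and a mismatch in the last base can also be a sequencing error. In length, 56.5% of the 5p counts had 23 bases, 24.9% had 22 and 14.0% had 21, so the long class joined the templated T and the added A.

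The 3p arm differed from the 5p arm at both of its ends. Of its counts, 78.5 ± 0.804% began at the RefSeq base and 21.3 ± 0.772% began 1 base upstream. This earlier start moves the seed to AACGCCA, which none of the 724 mature rat miRNAs in RefSeq holds. At the 3′ end, 52.5% of the counts stopped 2 bases beyond the RefSeq end, 15.9% stopped 3 beyond and 11.6% stopped 1 beyond it. Only 11.5% stopped at the RefSeq end and 7.53% stopped 1 base before. The RefSeq sequence, 3p isomiR 4, accordingly held 7.39 ± 0.851% of the arm, and 3p isomiR 1, with 2 more hairpin bases, was the leading sequence in all 10 rats with 27.3 ± 2.07%. The 3p counts had 22 bases in 38.6% and 21 bases in 33.3% of cases.

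The base seen added to the 3p arm was mostly T. An added T was on 23.2 ± 2.28% of the 3p counts, with a range of 19.4 to 26.8%, while an added A was on 0.899% and an added G on 1.01%. 3p isomiR 2, the leading sequence with this T, had 15.6 ± 1.84% of the arm. Of the counts whose hairpin part stopped 2 bases beyond the RefSeq end, 34.2% carried the T, and of those that stopped 1 beyond, 34.1%. The share was 4.19% at the RefSeq end and 2.41% at 3 bases beyond. After the position 2 bases beyond, the hairpin's own next base is A, so that 3p isomiR 3, at 14.5 ± 1.74%, holds cuts 1 base longer and any added A together.

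**Figure D2:**
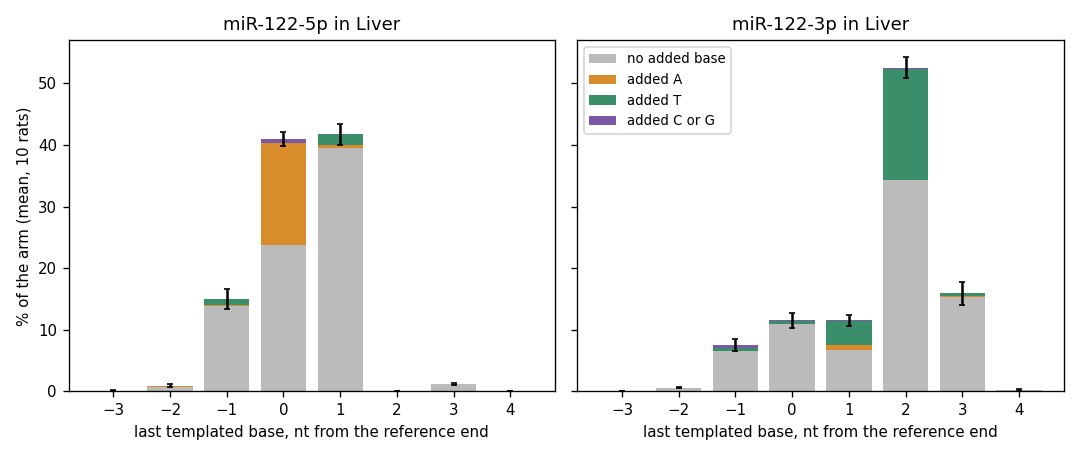
Templated 3′ end of each arm in Liver, in bases from the RefSeq end, as the percentage of the arm's counts, as the mean over 10 rats with the SD, and with the bars split by added base. The 5p arm splits between 0 and +1 with added A on the class at 0, and the 3p arm peaks at +2 with 52.5% of its counts and carries T.

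Together, the 5 sequences of the 5p arm with at least 1% of the arm held 92.6% of its Liver counts, and the 13 of the 3p arm held 93.4%. Below the 5 most counted 3p sequences, the other 8 ranged from 4.94 ± 0.495% to 1.26 ± 0.270%. They joined the same 2 starts with the same ends and the same added T. Just below the 1% limit were the sequences ranked 6 for the 5p arm, at 0.913%, and 14 for the 3p arm, at 0.513%.

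A mismatch inside the 5p arm stood apart in 1 library, which was noticed after the values were seen. At position 10, counted from 1 at the 5′ end, the change A10G had a mean share of 0.698% in Liver, with a maximum of 6.65% in male rat 5, against a median of 0.0156% over the 60 substitutions seen. In the lane 4 run of flow cell D2C4RACXX, 9.56% of this rat's 5p counts had any mismatch at position 10, while the other 21 Liver runs had at most 0.255%. The run of the same library on flow cell D1GBMACXX had 0.00771%. In the other tissues sequenced in that lane, 14 of 133 5p counts (10.5%) carried a mismatch at this position. The added A of rat 5 was likewise 12.0% in the lane 4 run and 16.5% in the run on D1GBMACXX. The lowest value of the added A over rats thus came with this lane, and its part in the isomiR shares of rat 5 was not tested beyond these values.

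The sexes were compared in Liver with a model across all names, edgeR's quasi-likelihood test with Benjamini-Hochberg adjustment. Of 462 names tested, 2 passed an adjusted p of 0.05 (0.433%), 1 higher in females (0.216%) and 1 higher in males (0.216%), and neither arm of miR-122 was among them. The log2 ratio of females to males was 0.11 ± 0.18 (SE) for miR-122-5p, with an edgeR adjusted p of 0.986. It was 0.17 ± 0.25 for miR-122-3p, with an edgeR adjusted p of 0.981. The mean CPM was 36272 ± 3286 in females and 31633 ± 3662 in males for the 5p arm, and 1559 ± 297 against 1285 ± 275 for the 3p arm (SD, n = 5 each). The sign of the 5p difference was not stable. With the extraction label in the model the log2 ratio was -0.10, and without female rat 11 it was -0.02. The difference in mean CPM of the 5p arm exceeded the SD within either sex, but the ranges overlapped. With total count scaling the log2 ratio was 0.20 ± 0.09 (edgeR adjusted p = 0.313).

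The same test over the isomiRs called 2 of 2794 sequences (0.0716%), 1 higher in females (0.0358%) and 1 higher in males (0.0358%). Of the 922 isomiRs of miR-122, 95 passed the filter on low counts, 72 of the 5p arm and 23 of the 3p arm, and 0 were called by edgeR. At an unadjusted p under 0.05 there were 8 and 2 in this fit, where 11.4% of all isomiRs tested were. DESeq2 called 2 of 35 of the 5p arm and 0 of 16 of the 3p arm, against 8.30% of all isomiRs it tested. With every sequence of at least 1 count in the fit, edgeR called 23 of 539 of the 5p arm, 9 of them higher in females, and 6 of 381 of the 3p arm, 1 of them higher in females, where 893 of 49677 isomiRs (1.80%) were called in all. The 8 of the 5p arm at an unadjusted p under 0.05 included sequences with G and with T at position 10, both higher in males. Their mean CPM was 10.8 and 1.94 in females, and 220 and 22.9 in males. Mismatches at position 10 were frequent in the lane 4 run of male rat 5. The part of that run in the isomiR calls was not tested. The 18 leading isomiRs had log2 ratios from -0.27 to 0.28, with a smallest edgeR adjusted p of 0.590.

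The arm share and the isomiR measures were compared with exact two-sided permutation tests over the 5 female and 5 male rats, which can give no p below 0.00794. Of 11 measures, none passed after Benjamini-Hochberg adjustment. The mean templated end of the 5p arm was 0.254 ± 0.031 bases past the RefSeq end in females and 0.308 ± 0.023 in males (n = 5 each, exact permutation p = 0.0159, adjusted 0.153). For the 3p arm it was 1.52 bases in females and 1.61 in males (exact permutation p = 0.0397, adjusted 0.153). The share of the 5p arm with an added A was 18.7% in females and 16.4% in males (exact permutation p = 0.0952, adjusted 0.210), and the difference in means was 1.41 percentage points without rat 5. The added T of the 3p arm was 21.8% in females and 24.6% in males (exact permutation p = 0.0556, adjusted 0.153).

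Marker miRNAs of other cell types in Liver were read beside these values. The only listed marker that passed the edgeR test was miR-200b-3p, an epithelial miRNA of bile ducts, with a log2 ratio of females to males of -1.43 ± 0.24 (SE, edgeR adjusted p = 0.0218) and mean CPM of 119 against 295. It was the only 1 of the 5 epithelial names called. The median log2 ratio of the list was -0.30, and miR-200a-3p had -0.44, miR-429 had -0.30 and miR-200c-3p had -0.29, none of them called. miR-141-3p, not called either, had -0.008, with mean CPM of 66.7 in females and 62.3 in males. The summed level of the list, miR-200b-3p included, was 276 to 434 CPM in females and 413 to 622 CPM in males. Its part in the values above was not tested. The median log2 ratio over all names was 0.019. Of 11 hepatocyte and liver names tested, 0 were called, with miR-802-3p at 0.60, miR-455-5p at -0.47, miR-378a-3p at 0.24 and miR-192-5p at -0.16. Among 4 erythroid names 0 were called, with miR-486-5p (counted under a composite name) at -0.26, miR-451-5p at -0.19, miR-144-3p at 0.16 and miR-144-5p at -0.10, and sums of 8977 to 14353 CPM in females and 8644 to 14954 in males. Among 6 leukocyte names 0 were called, with miR-223-3p at -0.32, miR-155-5p at -0.24, miR-142-3p at -0.05 and miR-146a-5p at -0.05. Among 5 stellate and fibroblast names 0 were called, with miR-145-5p at -0.19, miR-199a-5p at -0.17, miR-214-3p at -0.17, miR-199a-3p at 0.13 and miR-143-3p, the most abundant, at 0.09. The sum of that list was 36511 to 46521 CPM in females and 33756 to 39303 in males. Both endothelial names tested, miR-126a-5p at -0.14 and miR-126a-3p at -0.07, were not called. In a bulk library, fewer cells of a type and less of a miRNA per cell cannot be told apart.

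Outside Liver, miR-122 was present only as a trace. Liver held 99.8% of all 5p counts and 99.6% of all 3p counts of the series. The other 205 libraries together had 3391 counts of miR-122-5p, a pooled level of 3.36 CPM, and 208 counts of miR-122-3p, a pooled level of 0.206 CPM. At least 1 count of the 5p arm was in 178 of them and of the 3p arm in 67. A level of the 5p arm above 10 CPM was reached in 11. The lowest Liver library was 390-fold above the highest library of any other tissue for the 5p arm and 154-fold for the 3p arm. miR-122 is known for its level in liver, so the levels are given as a description with no test.

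Below Liver, tissues next to each other in the order of means were not separated beyond their spread. The testicle had the next mean, 15.7 ± 15.5 CPM (SD, n = 5), with 0 to 35.2 CPM, but its libraries were shallow and this level rests on 42 counts in 3 of 5 libraries. The pancreas followed with 8.17 ± 6.84 CPM (n = 10), with a lowest value of 0, a median of 5.45 and a highest of 19.1. The glandular stomach had a mean of 7.74 ± 20.7 CPM, but its median was 0.803 and its highest library 66.5. DRG stood at 6.95 ± 14.3 CPM, a spread between repeats of 2 pools. Whole blood stood at 6.38 ± 3.23 CPM, from 3.46 over a median of 5.05 to 12.1, and was the tissue below Liver whose lowest library was highest. The medulla had 3.30 ± 6.98 CPM, the ileum 2.30 ± 1.58, the heart 2.07 ± 2.82 and the jejunum 2.04 ± 1.87. The other 13 tissues had means below 2 CPM, in the order soleus, adrenal, duodenum, biceps, ovary, hippocampus, cerebellum, non-glandular stomach, cerebrum, kidney, brainstem, cortex and uterus, the last at 0.637 CPM. All 21 pairs of neighbours below Liver overlapped and differed by less than the larger of their SDs. Tissues further apart in the order could separate. The lowest whole blood library, at 3.46 CPM, was above the highest of the cerebrum (3.22), cerebellum (3.03) and non-glandular stomach (2.85). It was also above the highest of the cortex (2.46), uterus (2.03) and brainstem (1.54).

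The 3p arm outside Liver was close to the limit of counting. Its highest mean was 0.654 CPM, in the glandular stomach, where 107 of 110 counts came from 1 library. The pancreas had 0.457 ± 0.367 CPM, with counts in 8 of 10 libraries. The testicle had 0 counts of 2426945. All other tissues had means between these, and again all 21 pairs of neighbours overlapped and differed by less than the larger SD.

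**Figure D3:**
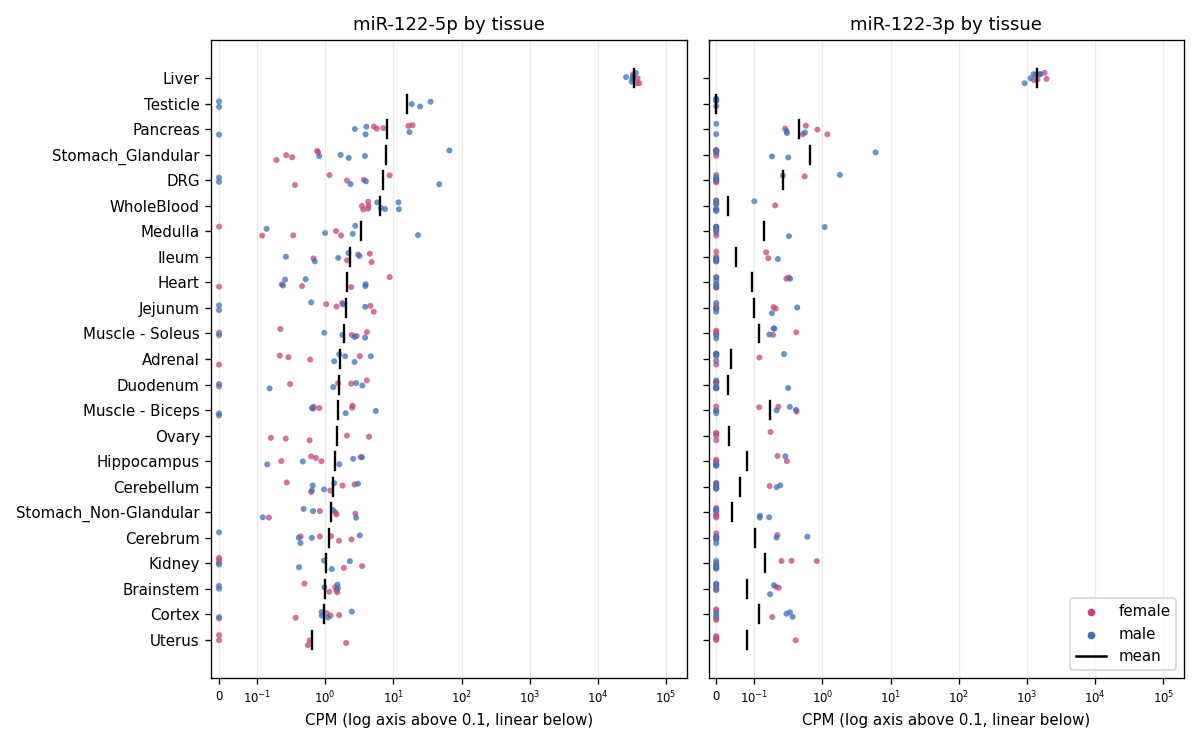
Levels of miR-122-5p and miR-122-3p in CPM on a log axis for every library of the 23 tissues, ordered by the mean of the 5p arm, 1 point for each library colored by sex and a line at the mean. Liver lies between 25926 and 40363 CPM for the 5p arm, and no library of another tissue is above 66.5 CPM.

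A few libraries held much of the trace. The glandular stomach of male rat 3 had 1179 counts of miR-122-5p, 66.5 CPM, and the next library of that tissue had 3.83 CPM. Both of its runs were high, with 67.7 CPM in a lane shared with the Liver of rat 4 and 59.7 CPM in a lane shared with the Livers of rats 2, 5, 9, 10 and 11. The 3p arm made up 8.32% of the counts of both arms there (107 counts, exact binomial 95% interval 6.87 to 9.97%), above each of the 10 Liver libraries. An added A was on 13.5% of its 5p counts (11.6 to 15.6%), below the 16.2 to 20.4% of 9 Liver libraries and above the 12.5% of rat 5. In the medulla of rat 6, with 23.0 CPM, 78 of 85 counts came from 1 run, at 276 CPM, in a D1GBMACXX lane that held Liver runs. Its run on D2C4RACXX had 2.05 CPM. The runs of the same library also differed for the pancreas of rat 11, with 131 CPM on D1GBMACXX and 5.25 CPM on C2BUMACXX, and for the heart of rat 10, with 82.4 CPM on D1GBMACXX and 2.48 CPM on D2C4RACXX. These lanes held a Liver run. Runs on D1GBMACXX that stood above the other run of the library were also in lanes without one, as in the jejunum of rat 4, with 38.8 against 0.237 CPM, the soleus of rat 8, with 22.8 CPM against 0, and the cerebellum of rat 5, with 15.3 against 1.097 CPM. All of these runs were picked out after their values were seen. In DRG, the highest library, 47.1 CPM, came from the male pool, whose other 4 libraries had 0 to 3.96 CPM, while the female pool had 0.361 to 8.81 CPM. Of its 52 counts, 43 came from a lane without a Liver run, at 45.0 CPM, and the 9 others from a lane with, at 60.1 CPM. Repeats of the male pool thus spanned a wider range than the means of all tissues below Liver.

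The trace moved with the flow cell lanes. On the flow cells C2BUMACXX and D2C4RACXX, with 16 lanes of other tissues, 10 lanes also held a Liver run and 6 did not. In the 10 lanes with a Liver run, the median miR-122-5p level over the runs of other tissues was 0.794 to 4.21 CPM, with a median over lanes of 2.13, and all 125 runs had at least 1 count. In the 6 lanes without, it was 0 to 0.169 CPM, with a median over lanes of 0.0473, and 37 of 80 runs (46.3%) had a count. The lane medians of the groups did not overlap. Over the 16 lanes, the median correlated with the share of the lane's reads that were Liver 5p reads (Pearson's r 0.870, Spearman's rho 0.883), and within the 10 lanes with a Liver run r was 0.580. These are descriptions of lanes that held different libraries and mixes of tissues and differed in depth.

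The pooled levels gave the same direction with smaller gaps, and by lane they overlapped, at 1.496 to 17.5 CPM in the lanes with a Liver run, or 0.893 to 4.63 without the glandular stomach library of rat 3, and 0.469 to 1.98 CPM in those without. The trace was 4.53 CPM in the lanes with a Liver run and 1.05 CPM in those without, and the former was 2.74 CPM without the glandular stomach library of rat 3. On D1GBMACXX it was 6.21 CPM in 3 lanes with a Liver run, or 4.08 without that library, and 1.82 in 2 lanes without. The runs on D1GBMACXX were shallower, and miR-122-5p was counted in 42.0% of the runs in the former and in 26.7% of those in the latter, so that most lane medians there were 0. Of 102 libraries with both kinds of run, 70 were higher in the lanes with a Liver run, 17 were lower and 15 were equal. The kinds of run of a library were on different flow cells, which differed in depth. By tissue, 20 of 22 pooled levels were higher there. Below 1 CPM were 17 of 22 tissues in the lanes without a Liver run, and 1 in the lanes with.

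**Figure D4:**
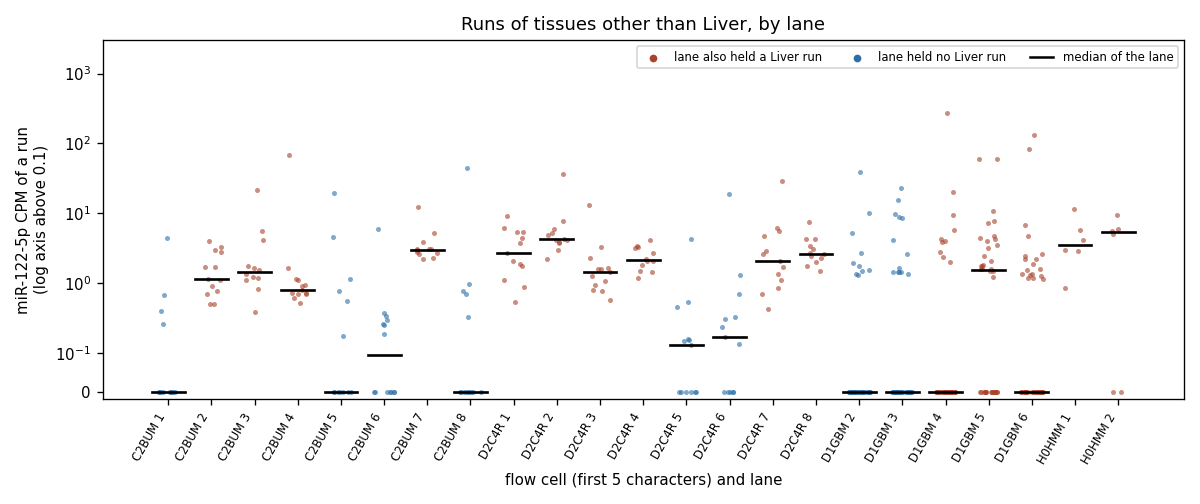
Level of miR-122-5p in CPM, on a log axis above 0.1, in each run of a tissue other than Liver, by flow cell lane, with a line at the median of the lane and colors for lanes with and without a Liver run. On C2BUMACXX and D2C4RACXX, the 10 lanes with a Liver run lie at 0.794 to 4.21 CPM and the 6 without lie at 0 to 0.169 CPM.

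The testicle, pancreas, DRG and whole blood had the highest traces and were read against the lanes. All 42 testicle counts came from lanes with a Liver run, and 0 of 978837 counts in the lanes without were miR-122-5p, which allows a level of up to 3.06 CPM. The pancreas was an exception to the direction, with 10.4 CPM in the lanes without a Liver run (exact Poisson 95% interval 8.68 to 12.3) and 6.48 CPM in the lanes with. Its 132 counts in the lanes without came from 2 libraries, 62 from rat 2 and 70 from rat 8, and the other 3 libraries there had 0, so the interval does not cover the spread between rats. DRG was the other, with 6.44 against 4.69 CPM, but 43 of its 44 counts were from the 1 library of the male pool named above. Without that library, DRG had 0.170 CPM in the lanes without a Liver run and 4.02 CPM in the lanes with. Whole blood stayed detected in the lanes without a Liver run, at 4.98 CPM (4.19 to 5.88) from 140 counts, against 7.83 CPM (6.95 to 8.78) in the lanes with. All 7 blood libraries in the lanes without had counts, at 1.43 to 8.82 CPM with a median of 4.42, while the highest median of any other tissue was 0.470 CPM. Intervals and limits cover counting error only.

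The isomiRs of the trace were compared with those of Liver in the same rats. For each of the 10 rats, the counts of all other tissues were summed, without DRG, and 6 measures were tested with two-sided permutation tests of 100000 resamples. The mean templated end of miR-122-5p was 0.281 ± 0.038 bases past the RefSeq end in Liver and 0.200 ± 0.070 in the other tissues (SD, n = 10, permutation p = 0.00614, adjusted 0.0368), and it was higher in Liver in 8 of 10 rats. Without whole blood the difference fell from 0.0813 to 0.0126 bases, and the permutation test gave an adjusted p of 0.599. With the rat as a block, which pairs the samples of the same animal, the difference of 0.0813 bases had an exact adjusted permutation p of 0.117. The call thus rested on whole blood and on the unpaired test.

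The other 5 measures were not called. The share of the 3p arm was 4.03% in Liver and 4.60% elsewhere (n = 10, permutation test, adjusted p = 0.487). The added A was 17.6% in Liver and 16.4% elsewhere (permutation test, adjusted p = 0.487), and the added T was 2.62% against 2.72% (permutation test, adjusted p = 0.809). The share at the reference start was 99.6% in Liver and 99.3% elsewhere, higher in Liver in 9 of 10 rats (permutation test, adjusted p = 0.253). Other mismatches were on 3.68% of the Liver counts and 4.49% elsewhere, lower in Liver in 9 of 10 rats (permutation test, adjusted p = 0.552). Only a mismatched last base was set aside as added, so a longer added tail can count as another mismatch and a later end. The 5p sequences ranked 8 and 10 in Liver, at 0.702 and 0.422% of the arm, can be of this kind. In the lanes without a Liver run, outside whole blood, 90.4% of 303 counts began at the reference base (86.5 to 93.5%) and 10.9% had another mismatch (7.62 to 14.9%), against 99.6% and 3.46% of the pooled Liver counts. Of the 29 counts with another start, 22 were from the high DRG library, and without it 97.3% began at the reference base. Sequence by sequence, the first 5 isomiRs of the 5p arm and the first 3 of the 3p arm came in the same order in the pooled counts of other tissues as in Liver. 5p isomiRs 1 to 4 held 35.8, 25.4, 15.0 and 13.2% of the 5p trace. 3p isomiRs 1 to 3 held 26.4, 19.2 and 15.4% of the 208 counts of the 3p trace. The glandular stomach of rat 3 alone gave 1179 of the 3391 5p counts and 107 of these 208. The order differed in whole blood, where 5p isomiRs 1 to 4 held 27.5, 19.3, 20.3 and 22.4% of 429 counts.

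Whole blood had shorter 5p ends than Liver, which was noticed after the values were seen and is given without a test. Its 429 counts of miR-122-5p had a mean templated end of -0.138 bases, against 0.273 for the pooled Liver counts. Of the blood counts, 32.2% ended at least 1 base before the RefSeq end (exact 95% interval 27.8 to 36.8%), against 16.4% in Liver, and 8.63% ended at least 2 bases before it (6.15 to 11.7%), against 1.11%. In the lanes without a Liver run the first share was 34.3% (26.5 to 42.8%). By rat, the mean end in blood was -0.444 to 0.294 bases and was below that of the Liver in 9 of 10 rats, the exception being rat 10 with 17 blood counts. The other tissues, without blood and the glandular stomach of rat 3, had 16.4% of 1783 counts short (14.7 to 18.2%) over all lanes, the same share as Liver. In the lanes without a Liver run, the tissues other than blood had 20.1% of 303 counts short (15.8 to 25.1%).

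Blood also held few counts of the 3p arm. There were 2 counts of miR-122-3p beside the 429 of the 5p arm, a share of 0.464% (0.0562 to 1.67%). In the lanes without a Liver run there were 0 of 140, which allows a share of up to 2.14%. The other tissues without the glandular stomach of rat 3 had 5.26% (4.30 to 6.37%). An added A was on 20.8% of the blood counts, against 17.7% in Liver, a value inside the exact 95% interval of blood.

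The level in blood was also read by sex, again after the values were seen and with no test. miR-122-5p stood at 3.46 to 4.32 CPM in the 5 females and at 5.79 to 12.1 CPM in the 5 males, with means of 3.99 ± 0.410 and 8.77 ± 3.00 CPM (SD) and no overlap. Of 381 names counted in all 10 blood libraries, 5 (1.31%) had ranges that did not overlap, all of them higher in males. RNA integrity numbers did not overlap either, at 7.4 to 7.7 in females and 8.0 to 8.4 in males, and RNA integrity and sex cannot be told apart here. In the lanes without a Liver run, the 4 female libraries had 1.43 to 4.42 CPM and the 3 male libraries 5.79 to 8.82 CPM. In the lanes with a Liver run, 3 female libraries had 3.50 to 3.79 CPM and 4 male libraries 6.07 to 13.0 CPM.

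**Figure D5:**
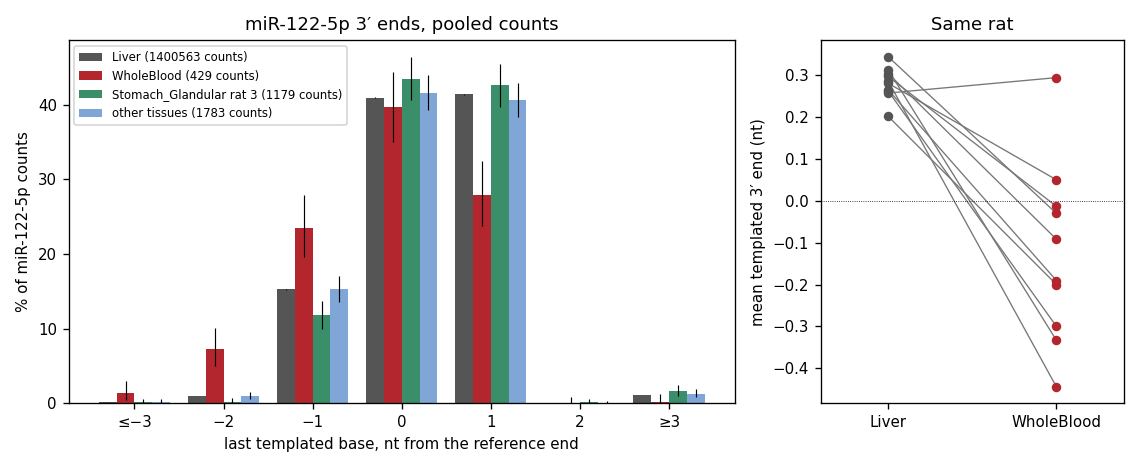
Templated 3′ end of miR-122-5p, in bases from the RefSeq end, as the percentage of counts in Liver, whole blood, the glandular stomach of rat 3 and the other tissues, with exact 95% binomial intervals, and beside it the mean end in Liver and blood of each rat. Whole blood has 32.2% of its counts at least 1 base short, and Liver and the other tissues, over all lanes, have 16.4%.

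The names with the pattern most like miR-122-5p over the tissues were sought among 581 names with a mean of at least 10 CPM in any tissue, by Pearson's r over the 23 tissue means of log2(CPM + 1). miR-122-3p came first with r = 0.960. It was followed at a distance by miR-511-3p with 0.672, miR-511-5p with 0.637, the composite name let-7a-5p;let-7f-5p with 0.619 and miR-3559-5p with 0.614. The gap between the first and the second name was wider than that between the second and the fifth. miR-511-3p and miR-511-5p were higher in the testicle, at 33.2 and 10.7 CPM, than in Liver, at 27.9 and 6.48 CPM. The composite let-7 name and miR-3559-5p were highest in Liver. Liver held 22.7 to 32.6% of the summed tissue means of these names, against 99.8% for miR-122-3p. The testicle was also next below Liver for miR-122-5p, on 42 counts.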

How the data were processed

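Small RNA libraries (adapters ligated to both ends, gel size selection) were trimmed by the authors with cutadapt 1.4.1, reads under 17 bases were removed, and miRDeep2's quantifier assigned them to miRBase miRNAs, with composite names for ambiguous reads. The deposited values are raw counts for each miRNA name and isomiR in 458 sequencing runs. Ligation efficiency for each end was not measured, and almost no sequence has more than 1 mismatch. Here, 14 runs repeating a library's lane were set aside (1 pair was identical), and 444 runs were summed to 215 libraries of 376401 to 17725805 counts. CPM used each library's total. isomiRs were placed on the RefSeq GRCr8 hairpin (the study used rn5 coordinates).

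Sex in Liver was tested with edgeR 4.0.16 (R 4.3.3, upper quartile scaling, filterByExpr, quasi-likelihood) across all names or isomiRs, and single measures with permutation tests (scipy 1.17.1), threshold 0.05. The p-values for sex measure spread between 5 rats of each sex, and those for Liver against the other tissues measure spread between 10 rats. Alternatives were TMM, total count scaling, DESeq2 1.42.0, no filter, extraction covariate, flow cells, left-out rats and a block for the rat. The rat numbers pair samples because they mark the same animal (correlations of Liver with the other tissues over 10 rats were -0.743 to 0.497). Scripts were tested on simulated data. There, the sex fit recovered 52.3% of 2-fold changes for names and 16% for isomiRs. A difference that was not called, above all of an isomiR, can thus have been missed. Members and lists were chosen with earlier results of these data known. Named were both arms, isomiRs of at least 1% of an arm and other names with miR-122 or a shared seed. The 5 most alike names and a reverse complement name were named as well. Markers of each list were also named, up to 5 in the sex comparison.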

Additional observations from a re-analysis of the deposited data

Results flagged for a closer look

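Of 74 groups of 4 to 10 libraries tested for a value far from the others by Dixon's criterion, 20 had one. The nominal rate of chance flags, about 1 in 20, does not hold for groups with very few counts. There, a lone library with a count is flagged whenever all others have none. The 3p levels outside Liver, close to the limit of counting, gave 12 of the 20 flags. For miR-122-5p, the far values were 66.5 CPM in the glandular stomach of rat 3, 47.1 CPM in DRG replicate 3, 23.0 CPM in the medulla of rat 6, 8.82 CPM in the heart of rat 10 and 5.53 CPM in the biceps muscle of rat 3. For miR-122-3p, the glandular stomach of rat 3 had 6.04 CPM, DRG replicate 3 had 1.81 CPM, the medulla of rat 6 had 1.08 CPM, the kidney of rat 10 had 0.831 CPM and the cerebrum of rat 6 had 0.603 CPM. Values of miR-122-3p between 0.1 and 0.5 CPM that rest on 1 or 2 counts stood apart in the jejunum of rat 4 (0.429 CPM), the soleus muscle of rat 9 (0.414 CPM), the uterus of rat 8 (0.406 CPM), the duodenum of rat 5 (0.316 CPM), the adrenal gland of rat 2 (0.275 CPM), whole blood of rat 10 (0.203 CPM) and the ovary of rat 9 (0.174 CPM). The glandular stomach, DRG and medulla libraries were far from the others for both arms.

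In Liver, male rat 5 stood apart by the share of counts with another mismatch, 10.9% for the 5p arm and 9.19% for the 3p arm, and male rat 3 by a mean templated end of the 3p arm of 1.71 bases beyond the RefSeq end.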

How the results depend on the processing

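Neither arm was called for sex under any alternative run. The count of names called for sex in Liver was 26 with total count scaling, 22 with DESeq2, 41 with no filter, 1 in the fit of 19 tissues and 1 on the flow cells C2BUMACXX and D2C4RACXX alone. The count of isomiRs called was 13 with TMM, 161 with DESeq2, 893 with a filter of at least 1 count and 1 with the extraction label. The log2 ratio of miR-122-5p was -0.0964 with the extraction label (edgeR adjusted p = 0.901) and -0.0769 on D1GBMACXX alone (edgeR adjusted p = 0.763). With the extraction label, the ratios of 5p isomiRs 2 and 4 were -0.213 and -0.00772, and those of 3p isomiRs 5 and 13 were -0.0908 and -0.328. On D1GBMACXX alone, the sex difference in the reference start of the 3p arm was 0.499 percentage points and that of its other mismatches 0.148. Without each rat in turn, the lowest and highest values were -0.0222 and 0.168 for miR-122-5p, -0.132 and 0.0166 for 5p isomiR 1, -0.0900 and 0.0778 for 5p isomiR 2, -0.190 and 0.00953 for 3p isomiR 3, -0.0987 and 0.171 for 3p isomiR 5 and -0.105 and 0.286 for 3p isomiR 13. They were -0.118 and 0.433 percentage points for the 3p share, -1.57 and 0.576 for other mismatches of the 5p arm, -1.32 and 0.711 for those of the 3p arm, 0 and 2 for names called and 0 and 6 for isomiRs called.

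For Liver against the other tissues, the replicate block for the rat gave the mean 5p end a difference of 0.0813 bases (adjusted exact permutation p = 0.117), and it changed no other call. The difference was 0.0126 without whole blood (adjusted permutation p = 0.599) and 0.177 in lanes without a Liver run (adjusted permutation p = 0.443). The difference in added T was 1.23 percentage points in those lanes (adjusted permutation p = 0.443) and 0.0592 without the glandular stomach of rat 3, an alternative chosen after seeing the data (adjusted permutation p = 0.888). With TMM scaling, the Liver level was 24210 CPM for the 5p arm and 1010 CPM for the 3p arm. Pooling the counts of a lane gave lanes without a Liver run a median of 1.02 CPM, also without that stomach library, against 0.0473 CPM from medians over runs. The causes were not tested. Of the values under alternatives that answer a comparison, 254 were the same, 31 moved, 11 reversed sign and 3 lost their call. Of the others, 563 were the same, 22 moved and 19 reversed sign. A tested difference was the same if it kept its direction and call. A level was the same if it stayed within its SD, and a count of calls if it changed little. The trace of the 3p arm, with 208 counts outside Liver, was limited by depth.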
